A study of Mus musculus with 15 samples.

Results

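The genes described here are 10 members of the oxygen sensing pathway, Hif1a, Epas1, Egln1, Egln2, Egln3, Vhl, Epo, Vegfa, Car9 and Bnip3, out of 22180 genes measured on the array. They were chosen by name, and every probe set annotated to a member alone was taken, 12 in all. Hif1a and Car9 had 2 probe sets each and the other members 1. Probe sets shared with another gene (1 for Hif1a with S100a11-ps and 1 for Epo with Gnb2) were left out. Kidney RNA came from 8 samples of Grhl1 knockout mice (replicates 8 to 15, gene status Grh1 KO) and 7 samples of wild-type mice (replicates 1 to 7, gene status Wild-type), aged about 6 months, with no treatment in the labels. Grhl1 belongs to the grainyhead-like family of epithelial transcription factors. The sources used here do not give how the allele was made, which part of the gene it removes, or the strain and sex of the mice. They also do not say that each sample is a separate mouse, so p-values measure the spread between these samples. The comparison sets the kidneys of Grhl1 knockout mice against wild-type kidneys. Each value is a log2 probe-set level from robust multi-array average (RMA), differences are knockout minus wild type, and errors of group means are SD with n = 8 knockout and n = 7 wild-type samples.

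Cells read oxygen through the α subunits of the hypoxia-inducible factors, encoded by Hif1a and Epas1. In the presence of oxygen, prolyl hydroxylases of the Egln family (also called PHD enzymes) hydroxylate these subunits, and the von Hippel-Lindau protein, encoded by Vhl, marks the hydroxylated subunits for degradation. When oxygen falls, the subunits escape, pair with Arnt and bind hypoxia response elements with the core letters ACGTG or GCGTG. In the adult kidney, interstitial fibroblasts make erythropoietin, the hormone that drives red blood cell production, and its gene Epo is chiefly a target of the Epas1 product. Vegfa, Car9 and Bnip3 are targets that serve vessel growth, pH control and the removal of mitochondria. Egln3 is itself a hypoxia target, so that the hydroxylase feeds back on the pathway. Most control of the pathway acts on protein, which an array does not measure.

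The promoters of Egln3 and its paralogues, and that of Bnip3, are shown because Egln3 is the member around which the results turn and Bnip3 is a hypoxia target with several core motifs at its start. They are RefSeq windows on GRCm38.p6 from 250 bases before to 50 bases after the annotated start, read 5′ to 3′ on the gene's own strand. Capitals mark ACGTG or GCGTG on either strand, and CACGTG, which reads the same on both strands, was counted as 2 overlapping matches.
Egln3 (chr12:54203825-54204124, minus strand): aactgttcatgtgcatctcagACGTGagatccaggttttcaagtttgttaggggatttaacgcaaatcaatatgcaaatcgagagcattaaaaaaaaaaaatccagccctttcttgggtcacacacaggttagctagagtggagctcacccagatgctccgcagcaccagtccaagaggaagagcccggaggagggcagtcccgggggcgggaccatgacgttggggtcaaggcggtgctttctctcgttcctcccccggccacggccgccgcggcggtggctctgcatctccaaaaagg
Egln1 (chr8:124949205-124949504, minus strand): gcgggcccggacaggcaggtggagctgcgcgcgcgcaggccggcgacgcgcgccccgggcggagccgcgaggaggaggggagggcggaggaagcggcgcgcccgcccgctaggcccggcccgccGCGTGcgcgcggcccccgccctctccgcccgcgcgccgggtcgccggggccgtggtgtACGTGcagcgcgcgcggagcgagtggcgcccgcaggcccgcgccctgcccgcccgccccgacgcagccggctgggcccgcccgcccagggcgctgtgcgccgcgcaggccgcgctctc
Egln2 (chr7:27166753-27167052, minus strand): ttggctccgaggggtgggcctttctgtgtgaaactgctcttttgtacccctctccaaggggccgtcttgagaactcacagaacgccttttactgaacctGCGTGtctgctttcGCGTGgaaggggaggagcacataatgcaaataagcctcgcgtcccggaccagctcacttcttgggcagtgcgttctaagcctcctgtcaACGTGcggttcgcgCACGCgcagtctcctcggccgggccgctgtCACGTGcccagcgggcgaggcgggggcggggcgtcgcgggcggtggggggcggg
Bnip3 (chr7:138909457-138909756, minus strand): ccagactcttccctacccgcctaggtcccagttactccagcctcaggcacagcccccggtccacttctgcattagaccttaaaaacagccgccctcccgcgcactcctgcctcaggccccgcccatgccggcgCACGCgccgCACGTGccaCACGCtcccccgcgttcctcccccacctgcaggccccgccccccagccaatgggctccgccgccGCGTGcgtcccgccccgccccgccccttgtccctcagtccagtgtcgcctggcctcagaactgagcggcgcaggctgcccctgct
The Egln3 window held 1 match, which begins 229 bases before the start. The Egln1 window held 2, at 126 and 68 bases before it, the shown Egln2 window 6 and the Bnip3 window 5. Because Bnip3 was shown for its several motifs, its count is not a finding. The RefSeq table held 11 windows for 9 members (all but Epas1), of which 9 windows had at least 1 match. Of all 32851 windows of this length, 43.8% had at least 1 match and 20.6% had 2 or more. The windows without a match were that of Vhl and 1 of the 2 of Vegfa. A match of these letters is a description and not a binding site.

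None of the 10 members passed the genotype test, in which limma was fitted over 23521 probe sets and a call needed a Benjamini-Hochberg adjusted p under 0.05. Of all probe sets, 0.0128% passed (3 in all), 0.00425% higher and 0.00850% lower in knockout kidneys. Of the 12 member probe sets, 1 (Egln3) had an unadjusted p under 0.05, where 5.55% of all probe sets did. In 0 of the 12 did the groups separate without overlap, where 0.123% of all probe sets did. The targeted gene itself, Grhl1, read 4.40 to 4.92 in knockout kidneys, against 4.96 to 5.25 in wild-type kidneys, a difference of -0.38 (SE 0.070, limma adjusted p = 0.113). Whether its probes lie in the deleted part is not given in these sources.

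Some differences between samples ran across both genotypes, and several members varied with them. Y-linked transcripts (Kdm5d, Uty and Eif2s3y, mean 8.37 to 8.68) were present in 5 knockout and 5 wild-type kidneys. They were low (3.96 to 4.26), with Xist at 11.4 to 11.6, in knockout replicates 13 to 15 and wild-type replicates 6 and 7. The mean of 10 proximal tubule genes was 12.4 to 12.5 in the 10 samples with Y-linked transcripts and 11.6 to 11.7 in the 5 without. Adrenal cortex transcripts (9 of 10 listed genes measured) were high, with means of 7.17 to 9.15 against 4.90 to 5.23 elsewhere, in 4 of 8 knockout kidneys (replicates 10 to 13) and 2 of 7 wild-type kidneys (replicates 2 and 3). Liver transcripts (14 genes) were high, with means of 9.04 to 10.7 against 7.20 to 7.44, in knockout replicate 10 and wild-type replicates 3 and 7. In RNA of bulk kidney, fewer cells of a type and less RNA per cell cannot be told apart.

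**Figure D1:**
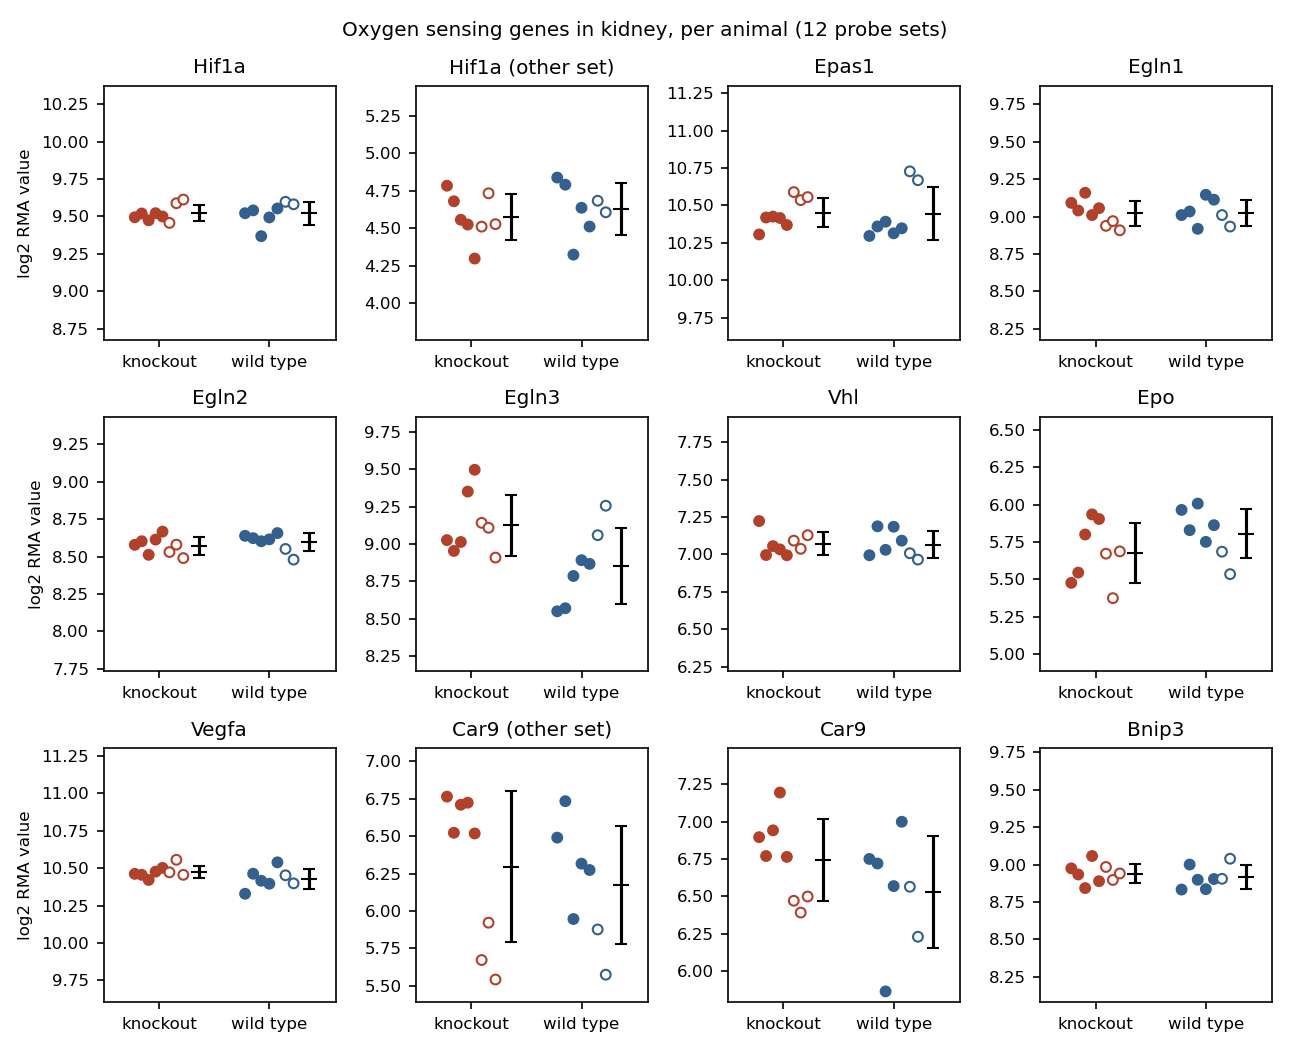
Log2 RMA value (y axis, same span in each panel) of the 12 member probe sets in each sample, with knockout left and wild type right. The title reads per animal, but the sources do not say that each sample is a separate mouse. Filled points are samples with Y-linked transcripts, open points those without, and bars are group means with SD. Egln3 lies higher in most knockout samples, and Epas1 and the other Car9 probe set split by the Y-linked transcripts in both genotypes.

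The α subunits did not pass, and their differences were small. Hif1a, the broadly expressed subunit, read 9.46 at the lowest, 9.51 at the median and 9.61 at the highest in knockout kidneys, against 9.37, 9.54 and 9.60 in wild-type kidneys. The groups lay on top of each other, with a difference of -0.0012 (SE 0.042, 95% interval -0.091 to 0.088, limma adjusted p = 0.999). The sign turned with the arrays centred on their medians (0.0025). The dimmer probe set of Hif1a, with 23.2% of genes below its mean, differed by -0.051 (SE 0.082, limma adjusted p = 0.997).

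Epas1, the subunit of the endothelium and of the erythropoietin-producing cells, read 10.31 at the lowest, 10.42 at the median and 10.59 at the highest in knockout kidneys, against 10.30, 10.36 and 10.73 in wild-type kidneys. The genotypes overlapped, and the difference was 0.0086 (SE 0.072, 95% interval -0.14 to 0.16, limma adjusted p = 0.998). Its spread followed the Y-linked transcripts instead: the 5 samples without them held the 5 highest values, 10.54 to 10.73, and the 10 samples with them read 10.30 to 10.43. Within the 5 samples without Y-linked transcripts the 3 knockouts lay below both wild types, a difference of -0.14 (exact permutation p = 0.100, the smallest these numbers allow, limma adjusted p = 0.726), and within the 10 with them the difference was 0.046 (limma adjusted p = 0.868). In the 5 samples, 24.7% of all probe sets separated the genotypes, and among the members Vhl (0.099) and Vegfa (0.069) did so as well, both higher in knockout. The genotype effects of these subsets differed by 0.18 (SE 0.070, limma interaction unadjusted p = 0.0202, adjusted p = 0.632), which did not pass. An unadjusted interaction p under 0.05 was found for 7.04% of all probe sets.

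Egln3, the hydroxylase induced by the factors it restrains, had the largest difference and the smallest p among the members. It read 9.03, 8.95, 9.01, 9.35, 9.50, 9.14, 9.11 and 8.91 in knockout replicates 8 to 15. It read 8.55, 8.57, 8.79, 8.89, 8.87, 9.06 and 9.26 in wild-type replicates 1 to 7. Each of the 8 knockout values lay above the wild-type median of 8.87, and the groups overlapped through wild-type replicates 6 and 7. The means were 9.12 ± 0.20 in knockout kidneys and 8.85 ± 0.25 in wild-type kidneys, a difference of 0.27 (SE 0.11, 95% interval 0.037 to 0.50) or 1.21-fold. The exact permutation p over all 6435 arrangements of the genotype labels was 0.0399 (0.800 adjusted over all probe sets), and limma gave an unadjusted p of 0.0258 and an adjusted p of 0.827. By p it ranked 732 of 23521 probe sets.

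The difference in Egln3 was not the same in every subset of samples. In the 10 samples with Y-linked transcripts, the 5 knockouts (9.17 ± 0.24) all lay above the 5 wild types (8.73 ± 0.16), a difference of 0.43 or 1.35-fold, with an exact permutation p of 0.00794, the smallest that 5 against 5 allow. There limma over all probe sets gave an unadjusted p of 0.00320 and an adjusted p of 0.430. In that fit 0.00850% of all probe sets passed and 7.72% had an unadjusted p under 0.05. In these samples 1.73% of all probe sets separated the genotypes, 1.02% with knockout higher. In the 5 samples without Y-linked transcripts the difference was -0.10 (exact permutation p = 0.600, with 0.100 the smallest that 3 against 2 allow). The genotype effects of these subsets differed by 0.54 (SE 0.19, limma interaction unadjusted p = 0.0145, adjusted p = 0.609), which did not pass. Of all probe sets, 7.04% had an unadjusted interaction p under 0.05.

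The highest Egln3 values, 9.35 and 9.50 in knockout replicates 11 and 12, came from kidneys with adrenal cortex transcripts. The other kidneys with such transcripts read 9.01 and 9.14 in knockout replicates 10 and 13, and 8.57 and 8.79 in wild-type replicates 2 and 3, the wild types below every knockout. Without the 6 samples that held such transcripts, Egln3 read 8.91 to 9.11 in 4 knockout kidneys and 8.55 to 9.26 in 5 wild-type kidneys. The difference was then 0.074 (exact permutation p = 0.619, limma adjusted p = 0.9999). Leaving out the adrenal samples also raised the share of samples without Y-linked transcripts. The latter were knockout replicates 14 and 15 and wild-type replicates 6 and 7. The others read 9.03 and 8.95 in knockout replicates 8 and 9, and 8.55, 8.89 and 8.87 in wild-type replicates 1, 4 and 5. Without the 3 samples with liver transcripts the difference was 0.35 (exact permutation p = 0.0177, limma adjusted p = 0.856). The part of adrenal tissue in the Egln3 difference was not tested.

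**Figure D2:**
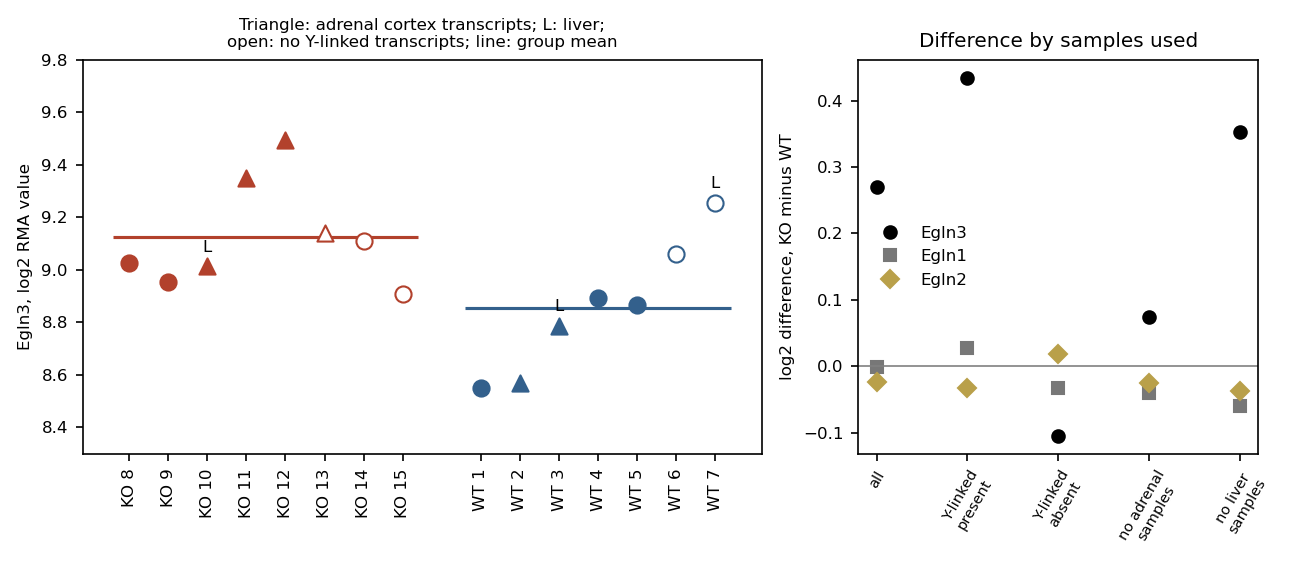
Left, Egln3 log2 RMA value (y axis) of each sample, knockout (KO) left and wild type (WT) right, with group means as lines. Right, log2 difference, knockout minus wild type, of Egln3, Egln1 and Egln2 in all samples and in 4 subsets. The Egln3 difference is 0.27 in all samples, 0.43 in those with Y-linked transcripts, -0.10 in those without, 0.074 without adrenal samples and 0.35 without liver samples, while Egln1 and Egln2 stay near 0.

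The paralogues of Egln3 did not pass and had narrower spreads. Egln1, which encodes the main oxygen sensor PHD2, read 8.91 at the lowest, 9.03 at the median and 9.16 at the highest in knockout kidneys, against 8.92, 9.01 and 9.15 in wild-type kidneys. The difference was -0.0018 (SE 0.049, 95% interval -0.10 to 0.10, limma adjusted p = 0.999), with its sign turned to 0.0020 by centring the arrays. Egln1 read 8.91 to 9.01 in the 5 samples without Y-linked transcripts and 8.92 to 9.16 in the 10 with them. Egln2, which encodes PHD1, read 8.49, 8.58 and 8.67 in knockout kidneys, against 8.48, 8.61 and 8.66 in wild-type kidneys. It differed by -0.024 (SE 0.040, 95% interval -0.11 to 0.062, limma adjusted p = 0.997).

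Whether Egln3 changed differently from its paralogues was tested on the per-array difference of the probe sets, in 3 contrasts. Egln3 minus Egln2 averaged 0.55 ± 0.16 in knockout kidneys and 0.26 ± 0.30 in wild-type kidneys, a difference in change of 0.29 (exact permutation p = 0.0357, 0.0553 adjusted over the 3 contrasts). Egln3 minus Egln1 averaged 0.10 ± 0.21 in knockout kidneys and -0.17 ± 0.28 in wild-type kidneys, a difference in change of 0.27 (exact permutation p = 0.0553, adjusted 0.0553). Against the mean of both paralogues the difference in change was 0.28 (SE 0.13, exact permutation p = 0.0413, adjusted 0.0553). None of the 3 passed after adjustment. All 3 contain the Egln3 values, and Egln1 and Egln2 themselves differed by only -0.0018 and -0.024. The contrasts therefore largely repeat the Egln3 difference and are not separate evidence for it. When 1 sample at a time was left out, the exact permutation p of the last contrast lay between 0.00366 (wild-type replicate 7 left out) and 0.0876 (wild-type replicate 1), and was over 0.05 in 9 of 15 cases. Without the adrenal samples this contrast was 0.11 (exact permutation p = 0.540), and in the samples without Y-linked transcripts it was -0.097 (exact permutation p = 0.5).

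Vhl, the substrate adapter of the ubiquitin ligase that clears the α subunits, read 6.99 at the lowest, 7.05 at the median and 7.22 at the highest in knockout kidneys, against 6.97, 7.03 and 7.19 in wild-type kidneys. The groups overlapped over nearly their whole range. The difference was 0.0039 (SE 0.049, 95% interval -0.099 to 0.11, limma adjusted p = 0.999).

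Epo, the hormone gene, was dim, with 42.1% of genes below its mean. It read 5.37 at the lowest, 5.68 at the median and 5.93 at the highest in knockout kidneys, against 5.53, 5.83 and 6.01 in wild-type kidneys. Of the 8 knockouts, 6 lay below the wild-type median and 2 below every wild type. The means were 5.67 ± 0.20 in knockout kidneys and 5.80 ± 0.16 in wild-type kidneys, a difference of -0.13 (SE 0.091, 95% interval -0.32 to 0.062, limma adjusted p = 0.975), which is less than the spread within either group. It was -0.24 without the adrenal samples (exact permutation p = 0.0635, limma adjusted p = 0.9999). Among the knockouts the 2 highest values, 5.93 and 5.90, were those of replicates 11 and 12, as for Egln3. In wild-type kidneys the 2 highest Epo values, 6.01 and 5.96, were those of replicates 3 and 1, which read 8.79 and 8.55 for Egln3. After removal of the group means, Epo and Egln3 had a Pearson r of -0.055 over the 15 arrays.

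Vegfa, the vascular endothelial growth factor made by podocytes and tubules, was bright and varied little. It read 10.42 at the lowest, 10.47 at the median and 10.56 at the highest in knockout kidneys, against 10.33, 10.42 and 10.54 in wild-type kidneys. All 8 knockouts lay above the wild-type median, but the difference was 0.047 (SE 0.038, 95% interval -0.034 to 0.13, limma adjusted p = 0.980), against an SD of 0.040 in knockout kidneys and 0.066 in wild-type kidneys.

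Car9, a membrane carbonic anhydrase that is strongly hypoxia-induced in tumour cells, had the widest spread of the members. Its brighter probe set read 6.39 at the lowest, 6.77 at the median and 7.19 at the highest in knockout kidneys, against 5.86, 6.57 and 7.00 in wild-type kidneys. It read 6.23 to 6.56 in the 5 samples without Y-linked transcripts. In the 10 with them it read 5.86 to 7.19, and all but wild-type replicate 3 read 6.57 or more. The lowest of all 15 values was wild-type replicate 3. Wild-type replicate 7 (6.23) also lay below every knockout, knockout replicate 11 (7.19) lay above every wild type, and the genotypes overlapped otherwise. The difference was 0.21 (SE 0.15, 95% interval -0.11 to 0.54, limma adjusted p = 0.976). It was 0.10 without wild-type replicate 3 and -0.0082 without the 3 samples with liver transcripts, of which that replicate is 1.

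The other Car9 probe set read 5.54 at the lowest, 6.52 at the median and 6.76 at the highest in knockout kidneys, against 5.57, 6.27 and 6.73 in wild-type kidneys. Its values again split by the Y-linked transcripts and not by genotype, with 5.54 to 5.92 in the 5 samples without them and 5.95 to 6.76 in the 10 with them. The genotype difference was 0.12 (SE 0.22, limma adjusted p = 0.997). Leaving out 1 sample moved it between 0.024 (without wild-type replicate 7) and 0.23 (without knockout replicate 15). Within the samples with Y-linked transcripts it was 0.30 (exact permutation p = 0.0556, limma adjusted p = 0.632), and within those without it was -0.013.

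Bnip3, a mitochondrial outer membrane protein that recruits the autophagy machinery, read 8.84 at the lowest, 8.94 at the median and 9.06 at the highest in knockout kidneys, against 8.83, 8.90 and 9.04 in wild-type kidneys. The groups overlapped, with a difference of 0.024 (SE 0.044, 95% interval -0.071 to 0.12, limma adjusted p = 0.997).

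**Figure D3:**
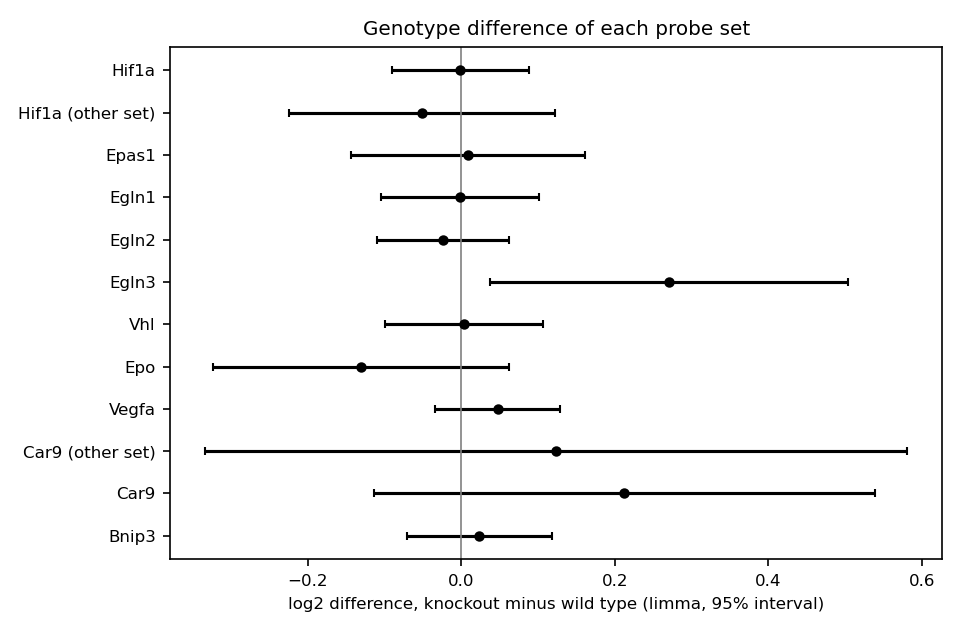
Log2 difference, knockout minus wild type (x axis), of each member probe set with its 95% interval from the limma fit. The interval of Egln3 (0.037 to 0.50) lies above 0 before adjustment for the number of probe sets, and the other 11 intervals include 0.

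The rest of the pathway was read from lists of other genes, in which 0 genes rose and 0 fell in limma. At an unadjusted p under 0.05 there were 1 in the factor machinery, 5 among the hypoxia targets, 2 in erythropoietin regulation, 1 among the vessel growth factors and 1 among the collagen hydroxylases, and 0 in the other 5 lists drawn in the plot of list differences. Of all 22180 genes, 1234 had an unadjusted p under 0.05, and of all probe sets 5.55%. Among 18 measured genes of the hypoxia-inducible factor machinery, 8 were higher and 10 lower, with a median difference of -0.030, against 0.0086 over all 22180 genes. Arnt2, a partner of the α subunits in neural tissue, had the smallest p (0.13, SE 0.057, adjusted p = 0.894), followed by Hsp90aa1, a chaperone of these subunits (-0.26, SE 0.16, adjusted p = 0.969). Cited2, which competes for the coactivators of the factors, was among the brightest and differed by 0.012 (adjusted p = 0.998). Of 48 other hypoxia target genes, 34 were higher and 14 lower, with a median of 0.024, while 12130 of all 22180 genes were higher. Hmox1, the haem oxygenase, averaged 7.49 ± 0.34 in knockout kidneys and 8.09 ± 0.47 in wild-type kidneys (-0.59, SE 0.19, adjusted p = 0.668), and Anln, a cytokinesis gene, differed by 0.19 (adjusted p = 0.826). The glycolytic enzyme gene Gapdh differed by 0.0037 and Ndrg1, a stress-responsive gene, by 0.069, both among the brightest of the list.

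Around the erythropoietin gene, 8 of 18 genes of its regulation and signalling were higher and 10 lower, with a median of -0.016. Stat5a, which carries the signal of the erythropoietin receptor, differed by 0.14 (SE 0.045, limma adjusted p = 0.672), and Hnf4a, a nuclear receptor that acts on the Epo enhancer, by -0.098 (SE 0.043, limma adjusted p = 0.889). Markers of the interstitial cells in which Epo is made were 5 higher and 5 lower, with a median of 0.00056. Their differences ran from -0.26 to 0.14, and the smallest limma adjusted p was 0.937. Among the lower ones were Dcn (-0.16) and Nt5e (-0.26). Of 14 red blood cell genes, 6 had a probe set of their own, with the globin genes among those without, and their median difference was -0.018. The gene with the lowest difference among them (-0.24) is also listed for the collecting duct. The mean level of these lists overlapped between genotypes, at 8.08 to 8.52 in knockout kidneys and 8.22 to 8.47 in wild-type kidneys for the mean of the interstitial markers, and at 5.496 to 5.553 in knockout kidneys and 5.482 to 5.628 in wild-type kidneys for that of the red blood cell genes.

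Beside Vegfa, 9 of 13 growth factors and receptors of vessels were higher and 4 lower, with a median of 0.022. Pgf, the placental growth factor, read 4.75 ± 0.14 in knockout kidneys and 4.48 ± 0.18 in wild-type kidneys (0.26, SE 0.078, limma adjusted p = 0.610). It was dim and, like Grhl1, lies on chromosome 12, 878 annotated genes away from Grhl1 in the RefSeq order. Kdr, the main receptor of the Vegfa product, differed by 0.069 (limma adjusted p = 0.950), and 9 endothelial markers had a median of 0.0086. Of 13 other carbonic anhydrases, 8 were higher and 5 lower, with a median of 0.041, and Car15 had the smallest p (0.16, limma adjusted p = 0.950). Of 16 other genes of the Bnip family and mitophagy, 8 were higher and 8 lower, with a median of 0.0013, and Pink1, the kinase that marks damaged mitochondria, differed by -0.075 (limma adjusted p = 0.938). Of 9 collagen prolyl and lysyl hydroxylases, which share the oxygen-dependent chemistry of the Egln enzymes, 4 were higher and 5 lower, with P4ha2 at -0.23 (limma adjusted p = 0.876).

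**Figure D4:**
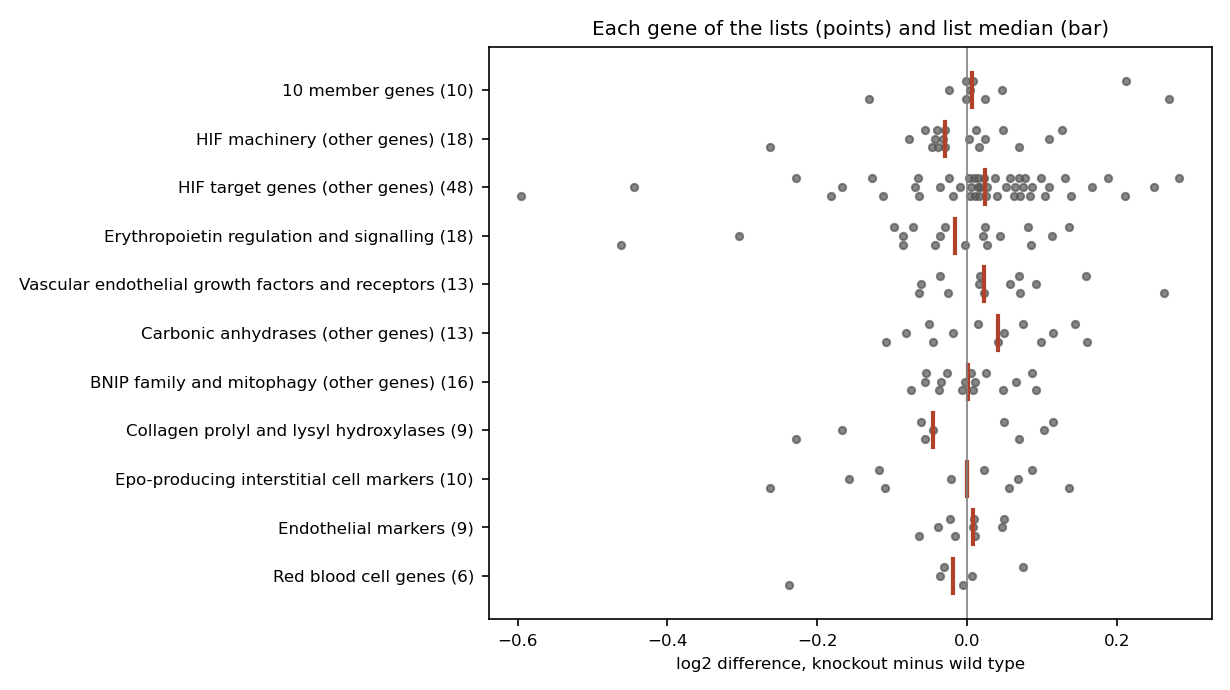
Log2 difference, knockout minus wild type (x axis), of each measured gene (points) in the members and 10 lists, with the number measured in brackets and the list median as a bar. The medians lie between -0.045 and 0.041, and the lowest point is Hmox1 at -0.59.

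Lists of other cells gave 0 genes past the limma threshold too, and at an unadjusted p under 0.05 there were 2 in the fat list (Ucp1 and Lep) and 0 in the others, where 5.55% of all probe sets had such a p. The medians were 0.0063 for 10 proximal tubule genes, -0.0012 for 7 of the thick ascending limb, 0.032 for 8 of the collecting duct and 0.021 for 5 of podocytes. They were 0.89 for 9 genes of the adrenal cortex, 0.18 for 6 of the adrenal medulla, -0.56 for 14 of the liver and 0.15 for 7 of fat. In the fat list Ucp1, the uncoupling protein of brown fat, had the smallest p (1.28, SE 0.28, limma adjusted p = 0.274). The part of these tissues in the members' differences was not tested.

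Egln3 and Hif1a lie on chromosome 12 with the targeted gene, 337 and 655 annotated genes away from Grhl1 in the RefSeq order, and the other members lie on other chromosomes. Of the 10 measured genes nearest to Egln3 (5 on each side), 0 passed in limma and 1 had an unadjusted p under 0.05, where 5.55% of all probe sets did. Arhgap5 had the smallest p, with 9.19 ± 0.083 in knockout kidneys and 9.31 ± 0.045 in wild-type kidneys (-0.12, SE 0.043, limma adjusted p = 0.738). Akap6, a kinase anchor, differed by 0.23 (limma adjusted p = 0.903), and Npas3 and Gm7550, the measured genes closest to Egln3 on either side, by 0.085 and 0.032. Of the 10 nearest to Hif1a, 0 passed as well, with differences from -0.10 for Syt16 to 0.18 for Gm8075, and Prkch, a protein kinase C gene, at 0.11 (limma adjusted p = 0.973).

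After removal of the group means, the genes most like Egln3 over the 15 arrays were 0610040B10Rik (Pearson r = 0.887), Slc25a26, a mitochondrial carrier (r = 0.860), and Smim3 (r = 0.843). Smim3 averaged 7.12 ± 0.094 in knockout kidneys and 6.92 ± 0.15 in wild-type kidneys (0.20, SE 0.064, limma adjusted p = 0.672). The genes most like Epo were Ankrd6 (r = 0.920), St6galnac1 (r = 0.892) and Amelx (r = 0.883), and St6galnac1 and Amelx were dim. These are the highest of 22179 correlations each and are given as a description.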

How the data were processed

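Kidney RNA in 15 samples was measured on a 1-colour expression array. Per the labels' protocols, 500 ng of RNA per sample went through the Ambion WT Expression kit and carried biotin. The authors deposited log2 values made with RMA, per the submitters' processing notes, which corrects background and equalises the distributions of the arrays, so that a shift of most transcripts would be removed and dim probe sets are compressed. The sources used here name no software version or genome build. Scanner files were not analysed here, and precision is set by how many arrays there are.

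The table held 41345 probe sets. The platform annotation gave 23521 of them exactly 1 gene symbol, 1814 several and 16010 none. For 23328 probe sets the Entrez ID was found in the RefSeq GRCm38.p6 table, and the symbol was taken from there, changed or not. That table also gave chromosomes and gene order. For a gene with several probe sets, the brightest on average stood for it.

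The genotype fit used limma 3.58.1 under R 4.3.3 (lmFit, eBayes without trend, no covariate) on all 15 arrays, with Benjamini-Hochberg adjustment over 23521 probe sets and a threshold of 0.05. All tests were two-sided, and intervals are 95% from the moderated fit. Exact permutation tests ran over all 6435 arrangements, with 0.000155 the smallest p. The fit and the permutation test were tested on simulated data. A sample held adrenal or liver transcripts where its mean over that list lay over 1 log2 unit above the median sample, and Y-linked transcripts where their mean lay above the midpoint of its range.

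The members, the gene lists and the tests were chosen with earlier results of these data known. The text names the members, Grhl1, in each list 2 genes with the smallest p and 2 with the highest mean (the text gives part of these), the 5 nearest measured genes on each side of Egln3 and Hif1a and the 3 most like Egln3 or Epo. Pgf's chromosome and the markers Kdm5d, Uty, Eif2s3y and Xist were named outside this rule. Alternatives were the variance model, array weights, covariate, samples, dim filter, probe sets tested, scaling, test and probe set of a gene.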

Additional observations from a re-analysis of the deposited data

How the results depend on the processing

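Across 27 alternative settings, 0 of 10 members, 0 of 20 neighbours and 0 of 224 other list genes passed in every setting. The count over all probe sets was 14 with a covariate for the mean of the Y-linked genes, 7 over all probe sets of the table, 1 in samples without Y-linked transcripts and 0 by the exact permutation test (1395 at an unadjusted p under 0.05), against 3, and 2 to 6 when leaving out 1 sample (6 without knockout replicate 8). The variance trend, dim filter, all probe sets, exact permutation and mean over probe sets could not change the Epo, Vegfa and Egln3 differences. Another 15 settings each left out 1 sample. Epo and Vegfa kept their signs in all 27 settings, and Egln3 in all but 1, the samples without Y-linked transcripts (-0.10). In those samples Epas1 was at -0.14, Egln2 at 0.018, the other Car9 probe set at -0.013 and Bnip3 at -0.031. In the samples with them, Hif1a was at 0.0066, Egln1 at 0.027 and Vhl at -0.037. With that covariate, Epas1 was at -0.0089 and Egln1 at 0.0059. With array weights Vhl was at -0.035, and with arrays centred Hif1a was at 0.0025 and Egln1 at 0.0020. Without the adrenal samples Hif1a was at 0.0045, its dimmer probe set at 0.026 and Epas1 at -0.016. Without the liver samples Vhl was at -0.021, Car9 at -0.0082 and its other probe set at -0.10. Leaving out 1 sample gave -0.021 to 0.019 for Egln1, -0.016 to 0.056 for Epas1, -0.027 to 0.011 for Hif1a and -0.018 to 0.024 for Vhl. For the change of Egln3 against Egln1, Egln2 and their mean, samples without Y-linked transcripts gave -0.071, -0.12 and -0.097, and leaving out 1 sample gave 0.22 to 0.35, 0.24 to 0.38 and 0.23 to 0.37. Against Egln1, which missed over all samples, it passed unadjusted in samples with Y-linked transcripts (0.41), without liver samples (0.41) and in 4 of 15 cases with 1 sample left out. Against Egln2 and the mean, which passed unadjusted over all samples, it missed in 8 and 9 of these 15 cases, in samples without Y-linked transcripts and without the adrenal samples (0.10 and 0.11), and against the mean also with the Y-linked covariate (0.27). The cause of these shifts was not tested. Settings of the fit, of the dim filter and of the features tested do not enter this contrast and were not run for it. No paired analysis was possible because the replicate numbers run from 1 to 7 in wild type and from 8 to 15 in knockout. Signal over background could not be tested, which limits the dim probe sets, among them Epo, Grhl1, Pgf, the dimmer one of Hif1a and several neighbours.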
